A study of Homo sapiens with 24 samples.

Results

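The genes described here are 50 genes of DNA replication and S phase. They were chosen by name for their part in copying the genome. The rule used no measured value, although earlier results of these data were known. Of these 50 genes, 31 could be tested in the RNA-seq data, among 10167 RefSeq accessions tested in all. The cells were Nalm6, an established human cell line of B-cell acute lymphoblastic leukemia. A lentiviral shRNA was directed at the histone methyltransferase G9a (gene EHMT2), its relative GLP (gene EHMT1) or their partner HP1γ (gene CBX3), and the control shRNA, shNS, had a nonspecific target. Cells were then kept for 8 h with the synthetic glucocorticoid dexamethasone (dex) at 100 nM, or with its vehicle ethanol. The 8 groups were thus shNS, shG9a, shGLP and shHP1γ cells, each with ethanol or dex, and each had 3 libraries, from replicates done on different days. The shNS cells thus carry a lentiviral shRNA as well, and no population is described as a clone. The comparisons address whether dex moves these genes at 8 h, and whether loss of G9a, GLP or HP1γ moves them or their response to dex.

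Replication starts at origins that are licensed in G1, when the origin recognition complex, CDC6 and CDT1 load the MCM helicase. CDC45 and the GINS complex activate that helicase in S phase, and the polymerases, the sliding clamp PCNA and its loader RFC then copy the strands. E2F transcription factors, which RB1 restrains, drive many of these genes, and cyclin E with its kinase carries the cell from G1 into S phase. Glucocorticoids are known to arrest lymphoid leukemia cells in G1 before they kill them.

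What could be measured depended on how many accessions a gene had in the count table. All 16 members with 1 accession had a mean of at least 1156 counts per library. Of the 34 members with 2 or more accessions, 7 reached a mean of 50 counts and 19 had a mean under 5 counts. The same held for the whole table, in which 26.3% of accessions from genes with 1 accession, but 73.9% of those from genes with several, were at 0 in every library. A member listed at or near 0 is therefore given as such, and nothing is read from it about the level of the gene. MCM2, a subunit of the helicase, had 1 count in shNS dex replicate 2, 1 count in shHP1γ ethanol replicate 3 and 0 in the other 22 libraries. PCNA had 1, 1 and 3 counts in shNS cells with ethanol and 0, 1 and 0 with dex. In shG9a cells it had 1, 1 and 2 counts with ethanol and 3, 0 and 2 with dex. In shGLP cells it had 0, 1 and 1 counts with ethanol and 0, 1 and 4 with dex, and in shHP1γ cells 1, 3 and 1 with ethanol and 0, 3 and 2 with dex. The G1/S cyclin gene CCNE1 and the thymidylate synthase gene TYMS were listed at 0 in all 24 libraries. The other members that could not be tested were ORC1, ORC6, MCM4, MCM10, CDC45, GINS3, POLA1, POLD1, POLE2, RFC1, RFC2, RFC5, RPA1, RPA2 and SLBP. The highest mean among all 19 was 4.583 counts, for RFC5. Results below rest on the 23 members with a mean of at least 50 counts, which ran from 62.54 to 14490 counts. The other 8 tested members, CLSPN, POLD2, MCM7, LIG1, DTL, RRM2, GINS1 and POLD3, had means of 8.667 to 39.38 counts.

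**Figure D1:**
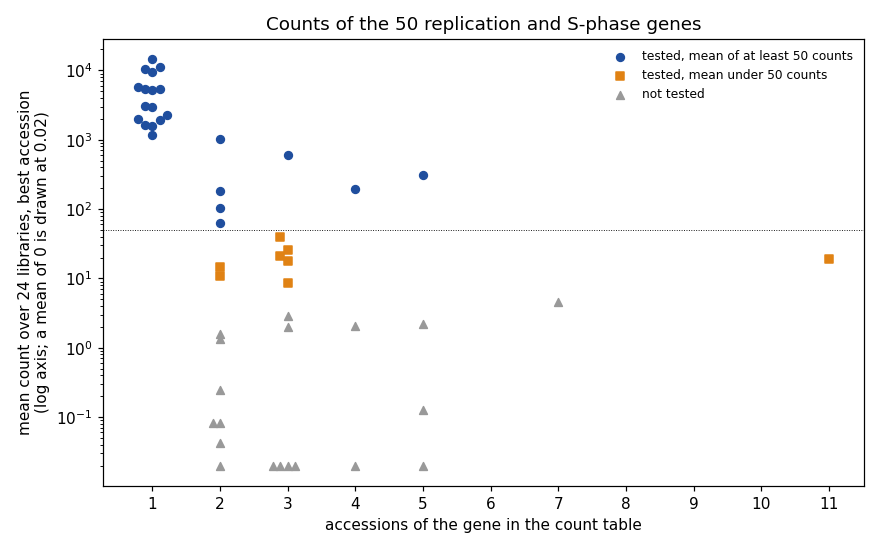
Mean count over 24 libraries (log axis) of the best-counted accession of each of the 50 members, against the number of accessions of that gene in the count table. The 16 members with 1 accession all lie above 1000 counts, and the 19 untested members, all with 2 or more accessions, lie under 5.

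The promoters are shown because E2F, the factor that drives many S-phase genes, binds a known short motif. Promoter windows from RefSeq (250 bases before to 50 bases after the start site) were found for 43 of the 50 members. CCNE2, POLD3, RPA2, GINS4, MCM4, RPA3 and MCM5 had none in that table. An E2F motif, searched on both strands as TTTCCCGC, TTTCGCGC, TTTGCCGC or TTTGGCGC, lay in 22 of these 43 windows (51.2%), against 908 of 27305 windows over all genes (3.33%). The CCAAT motif, searched on both strands, lay in 25 of 43 windows (58.1%), against 35.7% over all genes. The stretches below are the 100 bases before the start site of 5 members that were lower with dex in a test described further on. An E2F motif also lay in this stretch of POLA2, POLE, E2F2 and UHRF1, which were not called lower in that test and are not shown. The stretches are given 5′ to 3′ on the strand of the gene, with the E2F motif in capitals. The letters are from RefSeq (GRCh38.p14), and each stretch matched a single place in GRCh37, the build of the study.
MCM6 (chr2:136634014-136634113, minus strand): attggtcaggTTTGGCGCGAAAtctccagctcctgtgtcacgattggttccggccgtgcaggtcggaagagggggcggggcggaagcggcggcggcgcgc
GINS2 (chr16:85722561-85722660, minus strand): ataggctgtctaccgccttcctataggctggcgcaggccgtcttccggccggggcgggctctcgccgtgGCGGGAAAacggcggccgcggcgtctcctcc
CDT1 (chr16:88870097-88870196, plus strand): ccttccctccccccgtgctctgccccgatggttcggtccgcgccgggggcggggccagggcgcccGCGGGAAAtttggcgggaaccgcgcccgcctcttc
RFC3 (chr13:34392186-34392285, plus strand): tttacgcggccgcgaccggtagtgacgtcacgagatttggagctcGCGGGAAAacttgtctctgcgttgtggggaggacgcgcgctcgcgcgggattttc
E2F1 (chr20:32274192-32274291, minus strand): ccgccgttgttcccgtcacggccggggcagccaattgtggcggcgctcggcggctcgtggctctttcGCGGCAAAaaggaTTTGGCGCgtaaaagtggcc

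In MCM6 the capitals hold 2 overlapping matches, 1 on each strand, and in E2F1 2 separate matches. A motif match is a description of the letters and not evidence that E2F was bound.

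Library totals ran from 9289533 to 14387770 counts. Levels are given as CPM, the share of a library's counts scaled to 1e6 after upper quartile scaling. The B-lineage genes RAG1 and IGLL1 had means of 21360 and 703.6 counts, while CD79B and DNTT, which have several accessions, were at or near 0. Of 13 markers of other blood cells, 10 had a mean under 2 counts, and some of these, such as CD3D and CD14, have several accessions as well. NKG7, LYZ and MPO had means of 138.4, 105.7 and 12.5 counts. The depleted genes were checked where they could be. EHMT1 was at 2.58 CPM in shGLP cells (SD 0.60, n = 6) and 3.69 CPM in shNS cells (SD 0.62, n = 6), and was lower in 6 of 6 pairs. CBX3 was at 2.61 CPM in shHP1γ cells (SD 0.60, n = 6) and 3.83 CPM in shNS cells (SD 0.43, n = 6), also in 6 of 6 pairs. A second CBX3 accession was at 2.75 CPM in shHP1γ cells (SD 0.28, n = 6) and 3.23 CPM in shNS cells (SD 0.42, n = 6), and was lower in 4 of 6 pairs. EHMT2 was not analysed here.

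Both libraries of shHP1γ replicate 1 stood apart in these genes. In ethanol, 22 of the 23 members were lower in shHP1γ replicate 1 than in both other shHP1γ libraries, with a median log2 difference of -0.48 from their mean. In dex the count was again 22 of 23, with a median of -0.53. Over all 5785 accessions with at least 50 counts the medians were -0.06 and -0.02, and 46.6% and 44.6% were below both other libraries. MCM6 stood at 794 CPM in shHP1γ ethanol replicate 1, against 1086 and 1113 CPM in the other libraries of the group. For 14 of 23 members, shHP1γ replicate 1 was the lowest of 12 libraries in each treatment, which held for 12.7% of all 5785 accessions. The 11 well-counted mitosis genes, such as those for mitotic kinases and cyclin B, were also lower in 11 of 11 cases, by a median of 0.392 in ethanol on the log2 scale. shG9a dex replicate 2 had the largest spread of all libraries from its group, 0.316 on the log2 scale, and low values of members with several accessions. TK1, the thymidine kinase gene, was at 6.39 CPM there and at 15.4 and 11.2 CPM in the other libraries of that group. The main results that rest on these libraries are given with and without them. These libraries were singled out after the data were seen, and these same genes were low in shHP1γ replicate 1. Fits without them therefore describe the data and are no separate test.

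**Figure D2:**
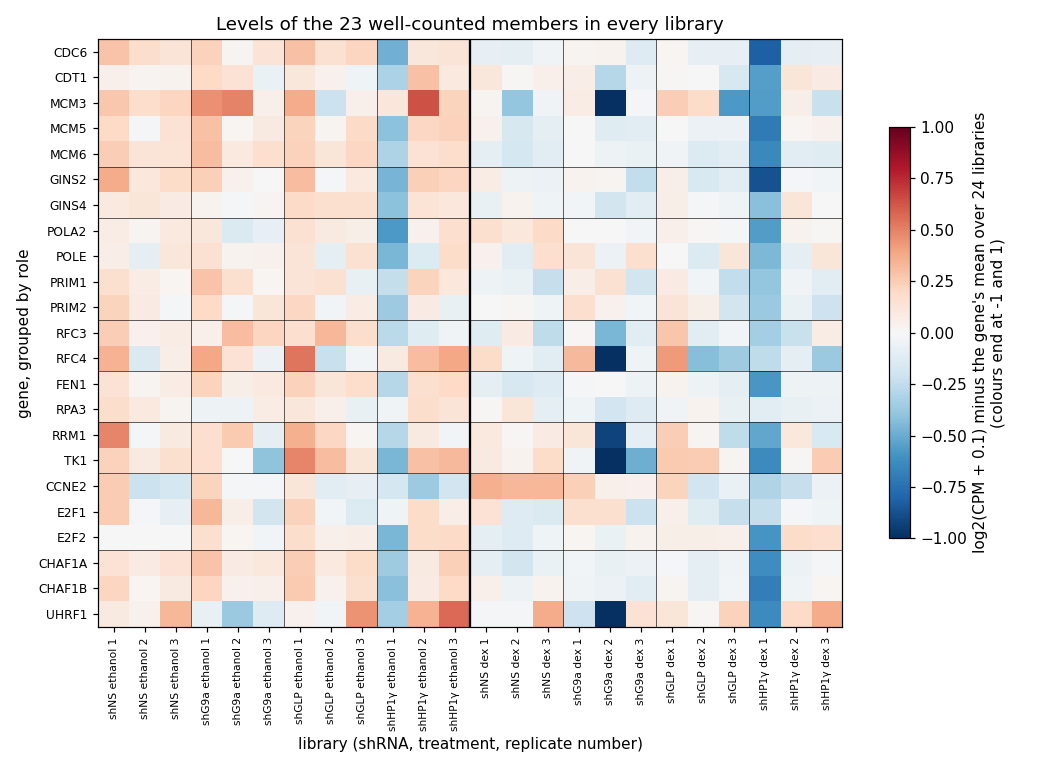
Colour shows log2(CPM + 0.1) of each of the 23 well-counted members in each of 24 libraries, minus the mean of that gene, with genes grouped by role. The columns of shHP1γ replicate 1 are blue in most rows in ethanol and in dex. In shG9a dex replicate 2 the deepest blue cells are MCM3, RFC4, RRM1, TK1 and UHRF1, and paler ones include RFC3 and CDT1.

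With dex, 8 genes of licensing, clamp loading, primase, single-strand binding, fragment joining and chromatin assembly were called lower on average over the 4 populations. Their falls ran from 7.05% to 25.9%, and MCM3, MCM6 and CDC6 fell most. The 25.9% was that of MCM3, which had a mean of only 102.9 counts. Its log2 fold change went from -0.43 to -0.32 without shG9a dex replicate 2. Of all accessions 13.4% were called lower by the same test, as were 21.3% of the 5785 with at least 50 counts. Without replicate 2 the count of called members, CCNE2 included, went from 9 to 4, and without replicate 3 to 1. The shares of all accessions called in these fits are not given here, so the loss is not read as particular to the members. MCM6, a subunit of the helicase (GRCh37 chr2:136597196-136634013), had 1170, 1074 and 1079 CPM in the ethanol libraries of shNS cells and 923, 871 and 908 CPM in the dex libraries, so the groups did not overlap. In shG9a cells MCM6 went from 1218, 1054 and 1105 CPM to 986, 951 and 941 CPM. In shGLP cells it went from 1157, 1070 and 1133 CPM to 958, 894 and 911 CPM. Here too every dex library was below every ethanol library. In shHP1γ cells the ethanol values were 794, 1086 and 1113 CPM and the dex values 629, 914 and 906 CPM, so the groups overlapped through replicate 1. MCM6 was nevertheless lower with dex in 12 of 12 pairs, a pair being the ethanol and dex library of the same shRNA and replicate number.

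Counts were tested with edgeR's quasi-likelihood test in 1 model fitted to the 24 libraries, in which the replicate number was a block. P values were adjusted by Benjamini-Hochberg over all 10167 accessions, and a gene was called at an adjusted p of at most 0.05. In this model no member was called lower with dex in any single population. The only call was a rise of CCNE2 in shNS cells, described below. Of all accessions 9.95% were called in shNS cells, 6.24% in shG9a cells, 3.29% in shGLP cells and 3.22% in shHP1γ cells. At an unadjusted p under 0.05 there were 3, 4, 1 and 5 members. The members nevertheless lay mostly below 0. Of 23, 19 had a negative fold change in shNS cells, 21 in shG9a cells, 22 in shGLP cells and 22 in shHP1γ cells. The median log2 fold changes were -0.10, -0.15, -0.13 and -0.18, and those of all accessions were -0.03, 0.01, -0.01 and -0.01.

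Averaged over the 4 populations in the same model, a contrast added after the data were seen, 8 members were called lower and 1 higher. Of all accessions, 13.4% were called lower and 10.3% higher by this contrast. All 9 called members were among the 23 with at least 50 counts, and of the 5785 accessions with as many counts 34.8% were called, so the share of members called was near that of accessions counted as well. The 8 were MCM6 (log2 fold change -0.28, SE 0.055, adjusted p = 0.00059 by edgeR), CHAF1A, CDC6, FEN1, PRIM1, RFC3, MCM3 and RPA3. Their falls ran from 7.05% for RPA3 to 25.9% for MCM3. The higher one was CCNE2, by 9.06%, and its call was lost in 5 of 13 alternatives. The median log2 fold change of the 23 members was -0.17, against -0.01 for all accessions. The call left without replicate 3 was MCM6. In bulk RNA, fewer cells in S phase and less RNA of these genes per cell cannot be told apart.

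When each pair of an ethanol and a dex library was given its own block, an alternative also added after the data were seen, 16 members were called lower on average over the populations and 1 higher. The shares over all accessions were 15.7% lower and 11.9% higher, and 25.2% of those with at least 50 counts were lower. Within single populations this fit called 7 members lower in shNS cells, 6 in shG9a cells, 8 in shGLP cells and 9 in shHP1γ cells. The matching shares of all accessions called lower were 8.25%, 5.36%, 3.40% and 3.17%, and of those with at least 50 counts 13.8%, 8.9%, 5.76% and 5.39%. The fit called 1 member higher, CCNE2 in shNS cells, where 5.82% of accessions were called higher. MCM6, MCM5, FEN1 and CHAF1A were called lower in all 4 populations, which held for 139 of 10167 accessions (1.37%). The pair fit left the size of the changes as it was and lowered their standard errors, for MCM6 in shNS cells from 0.11 to 0.042 on the log2 scale.

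By direction alone, 8 of the 23 members were lower with dex in 12 of 12 pairs, and 12 were lower in at least 11 pairs. Of all 5785 accessions with at least 50 counts, 9.39% were lower in 12 of 12 pairs and 20.5% in at least 11. The 8 members were MCM6, MCM5, GINS2, GINS4, PRIM1, FEN1, CHAF1A and CHAF1B. The log2 differences of MCM6 in the 12 pairs ran from -0.34 to -0.15, and those of CHAF1A from -0.31 to -0.15. Those of GINS2 came closer to 0, from -0.41 to -0.02. Of the 6 of these genes with a promoter in the RefSeq table, 2 held the E2F motif (33.3%), against 11 of 19 well-counted members (57.9%).

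**Figure D3:**
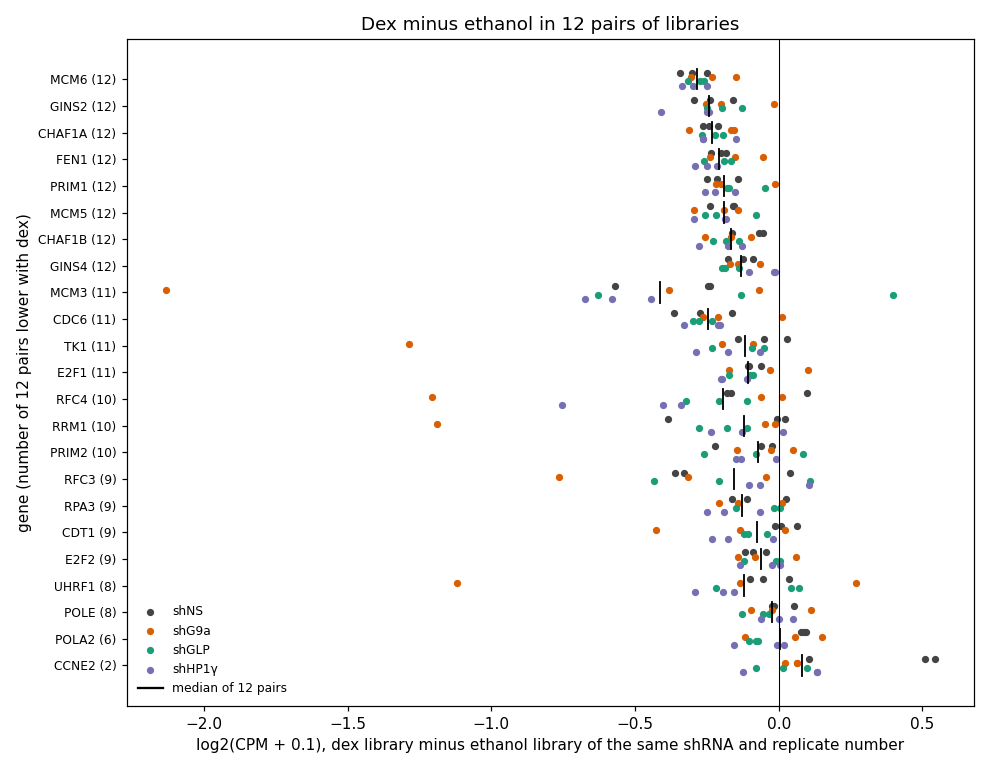
Each point is log2(CPM + 0.1) of the dex library minus that of the ethanol library of the same shRNA and replicate number, for 12 pairs and 23 members, and the black bar is the median. The 8 genes at the top have all 12 points left of 0, and CCNE2 at the bottom has its 2 highest points in shNS cells.

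Among the licensing genes, 6 of 10 were tested and 5 had at least 50 counts. All 5 were called lower on average with a block per pair, and MCM6, CDC6 and MCM3 were called in the model with the replicate number alone. CDC6 loads the helicase together with the origin recognition complex (GRCh37 chr17:38444131-38460909). It had 321, 299 and 289 CPM in shNS cells with ethanol and 250, 247 and 258 CPM with dex, with no overlap. In shGLP cells it went from 324, 294 and 307 CPM to 268, 250 and 250 CPM, again with no overlap. In shG9a cells the values were 311, 269 and 290 CPM with ethanol and 269, 271 and 242 CPM with dex, so replicate 2 did not fall. In shHP1γ cells CDC6 was at 189, 286 and 289 CPM with ethanol and 150, 248 and 250 CPM with dex. The average log2 fold change of CDC6 was -0.23 (SE 0.069, adjusted p = 0.015 by edgeR).

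MCM3, a further subunit of the helicase, has 2 accessions and was counted far less (GRCh37 chr6:52128812-52149679). It had 10.8, 10.1 and 10.4 CPM in shNS cells with ethanol and 9.10, 6.79 and 8.72 CPM with dex. In shG9a cells it went from 12.3, 12.6 and 9.25 CPM to 9.41, 2.80 and 8.82 CPM, and the lowest of these is the library that stands apart. In shGLP cells the groups overlapped, with 11.6, 7.66 and 9.26 CPM in ethanol and 10.6, 10.1 and 5.96 CPM in dex. In shHP1γ cells MCM3 went from 9.65, 13.96 and 10.4 CPM to 6.02, 9.31 and 7.62 CPM. The average log2 fold change was -0.43 (SE 0.142, adjusted p = 0.0286 by edgeR), and -0.32 without shG9a dex replicate 2 (adjusted p = 0.0203 by edgeR).

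MCM5, also a subunit of the helicase (GRCh37 chr22:35796127-35821424), had 1052, 909 and 1011 CPM in shNS cells with ethanol and 943, 817 and 856 CPM with dex. In shG9a cells it went from 1121, 928 and 972 CPM to 915, 841 and 852 CPM, and in shGLP cells from 1065, 930 and 1046 CPM to 916, 880 and 876 CPM. In shHP1γ cells it went from 687, 1053 and 1070 CPM to 560, 925 and 944 CPM. The groups overlapped in shNS and shHP1γ cells and did not in shGLP and shG9a cells, and all 12 pairs were lower. MCM5 fell by 12.9% on average with a block per pair (adjusted p = 1.81e-06 by edgeR). With the replicate number alone its change was of the same size but missed the threshold (adjusted p = 0.0537 by edgeR). CDT1, the loading factor that is destroyed when S phase begins, fell by 6.57% with a block per pair and was lower in 9 of 12 pairs. Its lowest log2 difference, -0.43, was in the pair of shG9a replicate 2. In shNS cells its mean was 498 CPM with ethanol and 505 CPM with dex. Of the helicase activators, GINS2 fell by 14.1% and GINS4 fell by 7.88% with a block per pair, and neither passed with the replicate number alone.

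PRIM1, the catalytic primase subunit, was the 1 member of the polymerases called lower, by 11.3% on average and in 12 of 12 pairs. The other members of that group with at least 50 counts did not pass. POLE, the catalytic subunit of polymerase epsilon, had a log2 fold change of -0.02 (SE 0.052), POLA2 of -0.01 (SE 0.064) and PRIM2 of -0.08 (SE 0.052). POLA2 was lower in 6 pairs and higher in 6. Its log2 differences were 0.09, 0.08 and 0.09 in shNS cells and -0.10, -0.08 and -0.07 in shGLP cells. The clamp loader genes RFC3 and RFC4 fell by 12.8% and 18.6% with a block per pair, and only RFC3 passed with the replicate number alone. RFC3 was lower in 9 of 12 pairs, and its lowest log2 difference, -0.76, was in the pair of shG9a replicate 2. RFC4 had 2 accessions and 10 of 12 pairs lower, and its log2 difference in the pair of shG9a replicate 2 was -1.21. Without shG9a dex replicate 2 its average log2 fold change with the replicate number alone went from -0.29 to -0.22, and that of TK1 from -0.21 to -0.13.

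FEN1, the nuclease that trims Okazaki fragments (GRCh37 chr11:61560383-61564710), had 536, 492 and 508 CPM in shNS cells with ethanol and 455, 434 and 441 CPM with dex, with no overlap. In shHP1γ cells it went from 396, 541 and 554 CPM to 324, 467 and 466 CPM, with replicate 1 lowest in both. FEN1 fell by 13.1% on average. The log2 fold changes were -0.21 in shNS cells, -0.15 in shG9a cells, -0.21 in shGLP cells and -0.25 in shHP1γ cells with a block per pair. RPA3, a subunit of the single-strand binding protein, fell by 7.05%. CHAF1A, a subunit of the factor that places histones behind the fork (GRCh37 chr19:4402637-4445015), had 512, 490 and 511 CPM in shNS cells with ethanol and 432, 408 and 442 CPM with dex, with no overlap. CHAF1A and CHAF1B, a further subunit of that factor, fell by 14.5% and 10.6% with a block per pair. Only CHAF1A passed with the replicate number alone. UHRF1, which carries DNA methylation through replication, did not pass in either fit (log2 fold change -0.13, SE 0.113 with the replicate number alone).

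Of the nucleotide supply genes, TK1 fell by 13.8% with a block per pair (adjusted p = 0.0421 by edgeR) and did not pass with the replicate number alone. Its log2 difference was -1.28 in the pair of shG9a replicate 2 and lay between -0.29 and 0.03 in the other 11 pairs. RRM1, the large subunit of ribonucleotide reductase, passed in neither fit. RRM2, the small subunit of that enzyme, was close to the limit of the counting. It had 1.04, 1.195 and 1.27 CPM in shNS cells with ethanol and 0.919, 1.03 and 1.29 CPM with dex. In shG9a cells RRM2 went from 1.75, 1.55 and 2.15 CPM to 1.04, 1.15 and 1.48 CPM, and no library of the dex group reached the ethanol group. In shGLP cells it had 0.923, 0.923 and 2.27 CPM in ethanol and 1.90, 1.54 and 1.02 CPM in dex. In shHP1γ cells it had 1.03, 1.58 and 1.33 CPM in ethanol and 0.796, 1.14 and 0.941 CPM in dex. RRM2 was called in no comparison, and the other 7 tested members under 50 counts were called in none of them either by the model with the replicate number.

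On average over the populations, E2F1 was called lower with dex with a block per pair and was not called with the replicate number alone, and E2F2 was called in neither fit. E2F1, an activator of S-phase genes (GRCh37 chr20:32263283-32274191), had 612, 506 and 485 CPM in shNS cells with ethanol and 568, 470 and 464 CPM with dex. In shG9a cells it had 649, 534 and 452 CPM with ethanol and 576, 573 and 442 CPM with dex. In shGLP cells it went from 602, 504 and 469 CPM to 533, 474 and 437 CPM. In shHP1γ cells it went from 500, 584 and 539 CPM to 436, 509 and 499 CPM. The groups overlapped in every population, while 11 of 12 pairs were lower. The average log2 fold change was -0.10 (SE 0.050, adjusted p = 0.145 by edgeR) with the replicate number as a block, and adjusted p = 0.0025 with a block per pair. It was also called without shHP1γ replicate 1 (adjusted p = 0.0176 by edgeR) and without a filter on low counts (adjusted p = 0.0172 by edgeR). E2F2 was lower in 9 of 12 pairs (log2 fold change -0.06, SE 0.069).

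**Figure D4:**
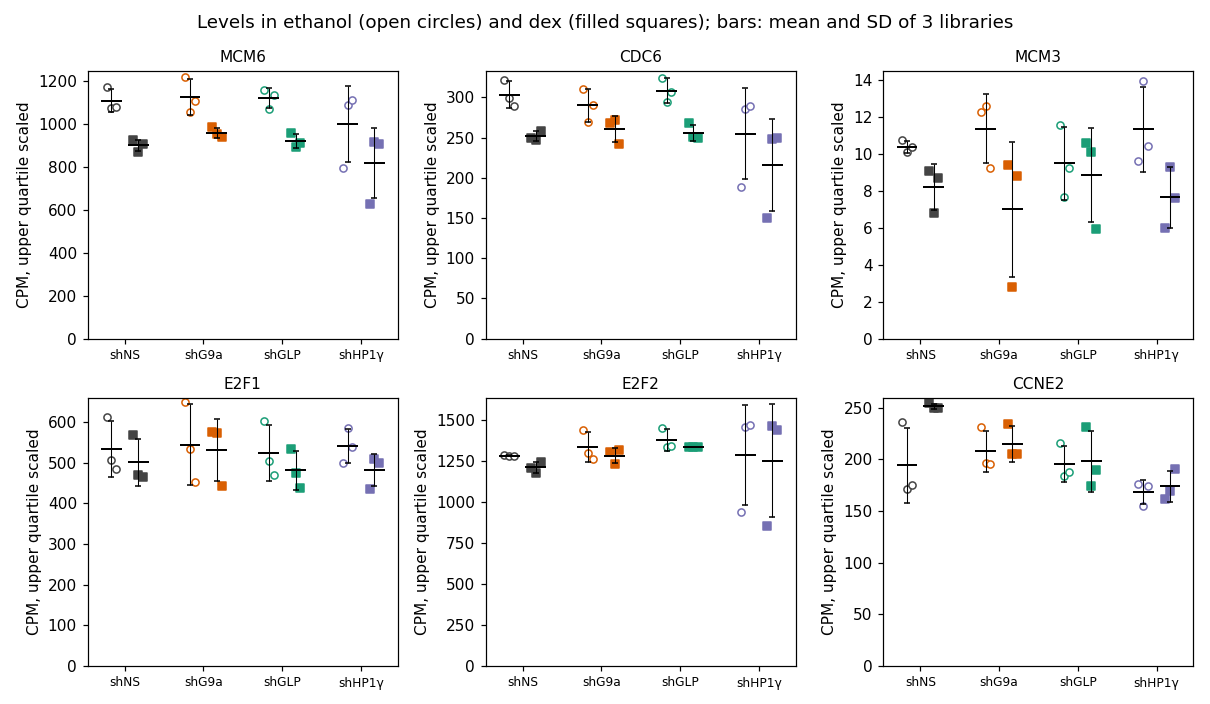
CPM of MCM6, CDC6, MCM3, E2F1, E2F2 and CCNE2 in each library, with ethanol as open circles, dex as filled squares and bars for the mean and SD of 3 libraries. The group means of MCM6 and CDC6 are lower with dex in all 4 populations, and CCNE2 with dex is near 250 CPM in the 3 shNS libraries and lower in all libraries of the other populations.

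CCNE2, the gene of cyclin E2 and so of a driver of entry into S phase, was the 1 member called higher with dex. It had 236, 171 and 176 CPM in shNS cells with ethanol and 254, 250 and 250 CPM with dex. The 3 dex libraries lay above the 3 ethanol libraries, and replicates 2 and 3 gained more than replicate 1. The log2 fold change was 0.38 (SE 0.084, adjusted p = 0.00323 by edgeR). In shG9a cells CCNE2 had 231, 197 and 196 CPM with ethanol and 235, 205 and 205 CPM with dex. In shGLP cells it had 216, 184 and 188 CPM with ethanol and 231, 174 and 190 CPM with dex. In shHP1γ cells it had 176, 155 and 174 CPM with ethanol and 162, 170 and 191 CPM with dex. In these populations the groups overlapped, and the log2 fold changes with dex were 0.05, 0.01 and 0.05 (SE 0.084 to 0.085). The call in shNS cells was lost without the replicate block, without replicate 2 and without replicate 3, with adjusted p values by edgeR or DESeq2 from 2.99e-05 to 0.142 over 14 alternatives.

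The difference in the dex response itself was tested for every member. The response of CCNE2 differed from that in shNS cells by -0.33 in shG9a cells (SE 0.118), -0.37 in shGLP cells (SE 0.119) and -0.33 in shHP1γ cells (SE 0.119) on the log2 scale. None of these was called, with adjusted p values of 0.635, 0.709 and 1 by edgeR. No other member was called, and CCNE2 was the 1 member with an unadjusted p under 0.05 in each of these tests. Of all accessions 0.0885%, 0.118% and 0.0197% were called. The 3 tests share the shNS libraries and are not independent. For the 16 members with 1 accession the standard error of such a difference was 0.098 to 0.242 on the log2 scale. Differences well above their standard error could also go uncalled, as that of CCNE2 in shGLP cells did at -0.37 with SE 0.119. In shGLP cells, the CCNE2 difference was called without replicate 1 and when only the groups compared were fitted.

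In ethanol, no member was called after depletion of G9a, GLP or HP1γ by the model with the replicate number, where 3.73%, 3.61% and 2.91% of all accessions were called. DESeq2 called none of them either. At an unadjusted p under 0.05 there were 0, 0 and 2 members, the 2 being CCNE2 and RFC3 with shHP1γ. The median log2 fold change of the 23 members was 0.02 with shG9a, 0.01 with shGLP and -0.12 with shHP1γ, against -0.02, 0.01 and 0.02 for all accessions. The median with shHP1γ turned to 0.08 without shHP1γ replicate 1. The standard errors of the 16 members with 1 accession ran from 0.069 to 0.171, and changes larger than their standard error could go uncalled.

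In dex-treated cells, the depletions called no member with shG9a, and only CCNE2 with shGLP and with shHP1γ, while 8.80%, 5.77% and 4.09% of all accessions were called. CCNE2 was lower than in shNS cells by a log2 fold change of -0.35 with shGLP (SE 0.084, adjusted p = 0.0105 by edgeR). With shHP1γ the change was -0.53 (SE 0.084, adjusted p = 0.000379 by edgeR). With shG9a it was -0.23 (SE 0.083, adjusted p = 0.0888 by edgeR). All 9 dex libraries of the depleted populations had less CCNE2 than the 3 dex libraries of shNS cells. The same held for POLA2, which was not called in this model. POLA2 had 300, 288 and 306 CPM with dex in shNS cells and 268, 269 and 263 CPM in shG9a cells. It had 277, 270 and 265 CPM in shGLP cells and 182, 275 and 270 CPM in shHP1γ cells. The share of all accessions with such an order of libraries is not given here. LYZ, a myeloid marker, was at 19.4 to 31.2 CPM in the 6 shGLP libraries and at 1.61 to 5.64 CPM in the 6 shNS libraries. The summed level of all 13 markers of other blood cells was 33.7 to 47.6 CPM in shGLP and 12.8 to 20.3 CPM in shNS libraries. That sum includes LYZ, and 10 of the 13 had a mean under 2 counts, so it is not separate from the LYZ values. The part of these markers in the result was not tested. The call with shGLP was lost without the replicate block, without replicate 2 and without replicate 3. Without shHP1γ replicate 1 the change with shHP1γ was -0.41 (adjusted p = 0.000952 by edgeR).

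TK1 and UHRF1 had lower values in shG9a than in shNS cells with dex. TK1 was at 15.4, 6.39 and 11.2 CPM in shG9a cells and at 16.7, 16.2 and 17.9 CPM in shNS cells, so the groups did not overlap. Its log2 fold change was -0.64 (SE 0.244, adjusted p = 0.106 by edgeR) and became -0.33 without shG9a dex replicate 2. UHRF1 was at 23.3, 9.56 and 29.8 CPM in shG9a cells and at 26.8, 26.7 and 34.9 CPM in shNS cells, with overlap. Its log2 fold change was -0.53 (SE 0.229) and became -0.18 without that library. Neither was called in the model with the replicate number, but both were without a filter on low counts and with 2 RUVr factors, an estimate of unwanted variation.

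The fold changes with shHP1γ turned with replicate 1. With all libraries, 18 of 23 members were below shNS cells in ethanol and 22 of 23 in dex. Without shHP1γ replicate 1, 5 of 23 were below shNS cells in ethanol and 5 in dex, and the median log2 fold changes went from -0.12 to 0.08 and from -0.14 to 0.05. That replicate was left out after the data were seen, and most of these members, E2F2 included, were low in it. Leaving it out thus had to raise such fold changes, and the p values of this fit are no separate test. MCM6 changed from -0.16 to 0.03 in ethanol and from -0.14 to 0.05 in dex. E2F2 was then called higher with shHP1γ in ethanol, with a log2 fold change of 0.21 (SE 0.049, adjusted p = 0.0131 by edgeR), and in dex, with 0.28 (SE 0.049, adjusted p = 0.000635 by edgeR). Its values with ethanol were 937, 1458 and 1467 CPM in shHP1γ cells and 1286, 1280 and 1283 CPM in shNS cells. With dex they were 854, 1461 and 1442 CPM in shHP1γ cells and 1208, 1179 and 1245 CPM in shNS cells. E2F2 was thus higher than in shNS cells in replicates 2 and 3, and lower in replicate 1. In that fit 2.13% of accessions were called higher with shHP1γ in ethanol and 3.65% in dex, where 2.45% were called lower.

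**Figure D5:**
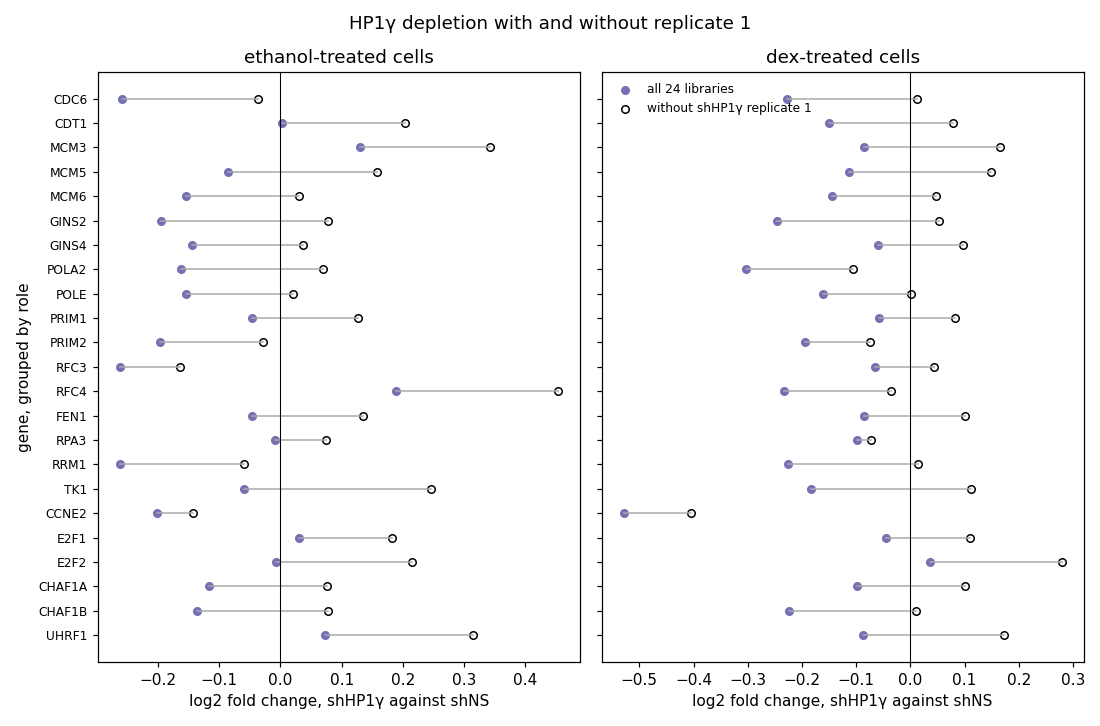
Fitted log2 fold change of shHP1γ against shNS cells for 23 members in ethanol and in dex, with all 24 libraries (filled) and without shHP1γ replicate 1 (open). Most open points lie right of the filled ones and close to or above 0, while CCNE2 stays below 0 in both.

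All groups share 1 estimate of the spread, so leaving out shHP1γ replicate 1 also changed the other comparisons. The standard error of MCM6 with dex in shNS cells was 0.11 with all libraries and 0.039 without it. The fit without it called 7 members lower with dex in shNS cells, 6 in shG9a cells, 8 in shGLP cells and 5 in shHP1γ cells, and 14 on average. The shares of all accessions called lower were 8.07%, 5.11%, 3.58%, 1.60% and 14.7%. MCM6, FEN1 and CHAF1A were called in all 4 populations. In dex-treated cells this fit called 4 members lower with shG9a, which were POLA2, CCNE2, UHRF1 and TK1, where 6.59% of accessions were called lower. It called CCNE2 lower with shGLP, where 3.79% were.

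Other cell cycle genes are set here beside the 13.4% of all accessions called lower and the 10.3% called higher with dex on average. Of 26 tested genes with other parts in replication, 4 were called lower and 0 higher on average over the populations in the model with the replicate number. DCK, the deoxycytidine kinase gene, had a log2 fold change of -0.19 (SE 0.026), and ASF1A, a histone chaperone gene, one of -0.16 (SE 0.027). RFWD3 and USP1, which act in the repair of replication forks, had -0.16 (SE 0.029) and -0.19 (SE 0.053). Of 19 tested regulators of G1/S and E2F, 7 were called lower and 1 higher. CDK4, the G1 cyclin-dependent kinase, fell by 0.228 on the log2 scale (SE 0.044) and RB1 by 0.126 (SE 0.032). CCND3, the gene of cyclin D3, fell by 0.811 (SE 0.105) at a mean of 49.75 counts. CDKN1B, the gene of the inhibitor p27, was the 1 that rose, by 0.14 (SE 0.043, adjusted p = 0.0186 by edgeR). CDKN1A, the gene of p21, was counted at a mean of 10.67 counts and did not pass (log2 fold change -0.50, SE 0.252). TSC22D3, a target gene of the glucocorticoid receptor taken as a control of the treatment, rose by 3.51 on the log2 scale (SE 0.086).

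Some mitosis genes were called higher after depletion of GLP or HP1γ. Of 16 tested mitosis genes, 3 were called higher with shGLP and 2 with shHP1γ in ethanol, and 4 and 2 in dex, with none called lower. The shares of all accessions called higher were 1.93%, 1.62%, 3.31% and 2.55%. Without shHP1γ replicate 1 the counts were 6 and 6 in ethanol and 7 and 5 in dex, and the median log2 fold changes of the 11 well-counted mitosis genes with shHP1γ went from 0.24 to 0.31 in ethanol and from 0.23 to 0.34 in dex. PLK1, a mitotic kinase gene, was higher with shGLP by a log2 fold change of 0.52 in ethanol (SE 0.086) and 0.58 in dex (SE 0.086). CDC20, an activator of the anaphase-promoting complex, was higher by 0.40 (SE 0.082) and 0.44 (SE 0.082). In the same 4 comparisons 0 members were called higher with all libraries. Without shHP1γ replicate 1, a fit added after the data were seen, E2F2 was called higher with shHP1γ in ethanol and in dex. With dex, averaged over the populations, KIF11 and CDC20 were called lower and AURKB higher.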

How the data were processed

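The 24 libraries were mapped to hg19 (GRCh37) with HISAT2 and counted on RefSeq genes with GenomicAlignments by the authors, and the deposited table, although named for CPM, holds raw counts as whole numbers. How reads shared by several accessions were assigned is not given in the sources used here. The deposited table of fold changes and adjusted p values was used only for its gene symbols. The accession of a symbol with the highest mean count stood for the gene. Accessions above 1 CPM in 2 libraries or more were kept, 10167 in all. Symbols of other accessions were taken from RefSeq. Tests used edgeR 4.0.16 in R 4.3.3 with upper quartile scaling, the 8 groups, the replicate number as a block and the quasi-likelihood F test, adjusted over all accessions. The labels place replicates on different days. Deviations from the group mean of libraries with the same number were correlated across accessions. Between ethanol and dex of the same shRNA the correlations were 0.094 to 0.812, the highest in shHP1γ replicate 1. Between shNS and depleted cells of the same treatment they were 0.051 to 0.545. No 2 replicates agreed within sampling noise (chi-square per degree of freedom 3.691 to 43.41). Intervals of counts cover counting error only, and p values measure the spread between these libraries. The members and all lists were chosen with earlier results of these data known. Values in every library are given for MCM2, PCNA, E2F1, CCNE1, CCNE2, TYMS, RRM2 and the 3 called members with the largest rise or fall in a comparison. TK1, UHRF1 and E2F2 were chosen after their values were seen. Gene positions are from GENCODE for GRCh37. MYC was not among the tested accessions. Alternatives were DESeq2 1.42.0, TMM scaling, other filters, summed accessions, 2 factors of unwanted variation (RUVr), only the groups compared, each replicate left out, and those added after the data were seen.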

Additional observations from a re-analysis of the deposited data

How the results depend on the processing

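In the model with all 24 libraries, 1, 0, 0 and 0 members were called with dex in shNS, shG9a, shGLP and shHP1γ cells, and 9 on average. Without the replicate block these counts were 0, 0, 0 and 0, and 7 on average, and the call of CCNE2 in dex-treated shGLP cells (1 member) became 0. Without a filter on low counts they were 4, 5, 2 and 4, and 17 on average, with 3 members for shHP1γ in ethanol and 2 and 5 for shG9a and shHP1γ in dex. With 2 RUVr factors they were 4, 3, 1 and 2, with 2 members for shG9a and 2 for shHP1γ in dex. With only the groups compared in the fit they were 12, 0, 8 and 12, with 1 member for shG9a in ethanol, 3 for shGLP in dex and 1 for the difference in response of shGLP cells. DESeq2 called 1 member with dex in shG9a cells. Leaving out each replicate in turn gave 0 to 5, 0 to 2, 0 to 3 and 0 to 3 members with dex, 1 to 11 on average, 0 to 2, 0 to 1 and 1 to 2 for the depletions in dex, and 0 to 1 for the response of shGLP cells. Without shHP1γ replicate 1, added after the data were seen, they were 8, 6, 8 and 5, and 15 on average, with 1 member for shHP1γ in ethanol and 4 and 2 for shG9a and shHP1γ in dex. With a block per pair, also added, they were 8, 6, 8 and 9, and 17 on average. The share of all accessions called changed with the setting as well. With dex in shNS cells it was 9.95% in the model with all libraries, 14.2% without shHP1γ replicate 1 and 14.1% with a block per pair. The shares in the other settings are not given here, so the counts are not read as particular to the members. The cause of these changes was not tested. In 140 of 189 combinations the count stayed within 1.5 times, and in 157 tests of the 12 called member results no direction turned and 130 were still called. Of all accessions called with dex in shNS cells, 45.2% were higher with upper quartile and 56.5% with TMM scaling. Members with several accessions had fewer counts, with standard errors up to 0.292.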
